A study of Homo sapiens with 4 samples.

Results

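The RAS, RAF and MEK genes described here are HRAS, NRAS, RRAS, ARAF, BRAF, MAP2K1 and MAP2K2, 7 of the 16489 gene names in the deposited tables, taken by name; the choice of these genes was made with earlier results of these data known. HEK293T cells, a human embryonic kidney line carrying the SV40 large T antigen, supplied all 4 libraries. The pulldown pair consists of RNA captured with biotin-labelled miR-34a and RNA captured with a control labelled NC, and the total RNA pair consists of cells given a miR-34a mimic, a synthetic duplex that supplies the microRNA, and cells given a control mimic. Each group is represented by a single library; the differences below therefore lack replicates, and p-values are not given. All 7 genes are in the mimic table, and 6 are in the pulldown table, where 5 reached the minimum of 20 reads in both libraries together. RRAS, with 2 control and 4 miR-34a reads, fell short of that minimum, and BRAF has no row in a table whose lowest control count is 1.

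RAS proteins are small GTPases that switch on when GDP is exchanged for GTP at the inner face of the plasma membrane. Active RAS recruits RAF kinases, RAF phosphorylates the MEK kinases, and MEK phosphorylates ERK, which enters the nucleus and acts on transcription factors. The cascade carries growth factor signals, and activating mutations of HRAS, NRAS and BRAF drive many cancers. MicroRNAs act as guides for Argonaute proteins, which silence messenger RNAs mainly through pairing of the seed at the microRNA's 5′ end.

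The 5p arm of miR-34a is shown because it is the arm known to guide silencing; the labels do not name the arm that was used. It is encoded on the minus strand at chr1:9151735-9151756 (GRCh38.p14, RefSeq), is 22 bases long and has its seed, bases 2 to 8, in capitals. A DNA match to that seed reads CACTGCC. Matches in the 7 messenger RNAs were not analysed here.
hsa-miR-34a-5p: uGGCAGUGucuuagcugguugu

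The deposited counts summed to 306996 reads in the control pulldown, 546180 in the miR-34a pulldown, 45493090 in the control mimic library and 42679778 in the miR-34a mimic library. Reads were summed over the transcripts of a gene, and libraries were scaled by TMM, which sets the bulk of genes equal; ratios are log2 of miR-34a over control. Brackets give an exact conditional binomial 95% interval, computed on reads divided by 2. The division was made because even counts were in excess, as if pairs were counted as 2 reads. In the pulldown that excess was seen only at low counts. A gene is said to lie beyond counting error where that interval leaves out 0; this covers counting in these libraries and no variation between cultures. The median ratio was 0.11 over 6253 pulldown genes and 0.00 over 14787 mimic genes. Of the epithelial markers, 8 of 8 had reads in total RNA, with summed levels of 1968 and 2433 CPM in control and mimic libraries, whereas PTPRC, HBB and CD3E of the 7 blood markers had no row.

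In the pulldown, ARAF and MAP2K1 had the highest ratios of the 5 measured genes and MAP2K2 and NRAS the lowest. 2 of the 5 were at least 1.5-fold higher with miR-34a, against 24.0% of all measured genes, and 0 were at least 1.5-fold lower, against 14.2%. 0 of the 5 were above the control beyond counting error and 0 below, against 7.08% and 3.66% of all genes. The median of the 5 was 0.54. With undivided reads, 3 of the 5 (ARAF, MAP2K1 and HRAS) had intervals above 0, against 15.5% of all genes. The excess of even counts that led to the division was seen in this table at 2 to 9 reads, where 73.5% of control counts were even, and not at 10 to 49 reads, where 52.3% were.

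HRAS, which encodes a RAS GTPase (chromosome 11, 532242 to 535576), was counted 54 times in the control and 136 times in the miR-34a pulldown, giving a log2 ratio of 0.54 [-0.13 to 1.24]. Its ratio was above that of 74.0% of measured genes, and its interval on undivided reads began at 0.07. NRAS, its close relative on chromosome 1 (114704469 to 114716771), had 12 and 14 reads, a ratio of -0.57 [-2.37 to 1.28]. With so few reads, neither a rise nor a fall of NRAS beyond 2-fold is outside its interval. RRAS, a RAS-related GTPase known for its part in integrin-mediated adhesion (chromosome 19, 49635292 to 49640143), had a ratio of 0.20 [-4.06 to 6.09] without the minimum, too wide to read a direction from.

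ARAF, the RAF kinase encoded on the X chromosome (47561205 to 47571908), had 10 reads in the control and 45 in the miR-34a pulldown, for a log2 ratio of 1.37 [-0.06 to 3.13]. This was 2.59-fold and above the ratio of 92.9% of measured genes. On undivided reads the interval ran from 0.36 to 2.53. BRAF, the RAF kinase with the highest basal activity (chromosome 7, 140713328 to 140924929), had 297 control and 222 mimic reads in total RNA. At the ratio of the library totals those counts correspond to 2 reads in the control pulldown and 2.84 in the miR-34a pulldown. The lowest control count in the pulldown table is 1, so the missing row gives no miR-34a count for BRAF. Why BRAF has no row was not tested.

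The MEK genes encode near relatives that share ERK as their substrate. MAP2K1, encoding MEK1 (chromosome 15, 66386912 to 66491544), had 24 reads in the control and 77 in the miR-34a pulldown, for a log2 ratio of 0.89 [-0.08 to 1.96] or 1.85-fold, with an interval of 0.21 to 1.61 on undivided reads. MAP2K2, encoding MEK2 (chromosome 19, 4090321 to 4124122), had 130 and 228 reads, the most of the 7 genes, and a ratio of 0.01 [-0.44 to 0.48]. Its share of the reads was thus nearly the same in both pulldowns. MAP2K1 and RRAS are the 2 of the 7 genes in the authors' UTR subset, which holds 25.1% of the genes in the mimic table, but no source used here states how that subset was drawn.

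**Figure D1:**
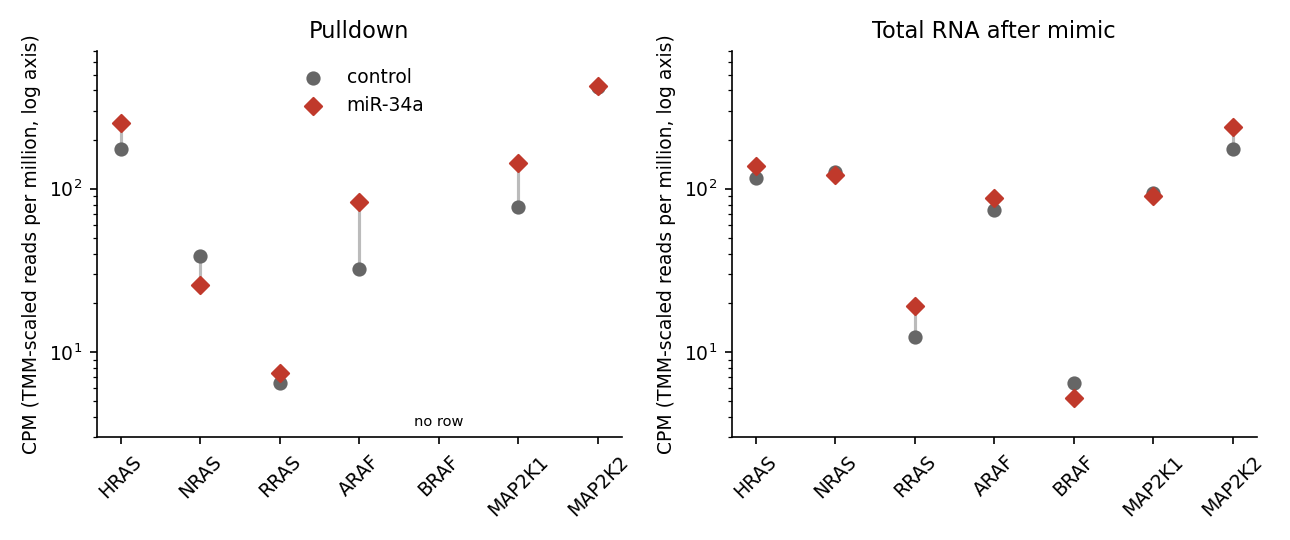
TMM-scaled CPM (log axis) of each gene in the control (grey circles) and miR-34a (red diamonds) libraries, 1 library per point. In the pulldown ARAF goes from 32.2 to 83.4 and MAP2K1 from 77.2 to 143, while in total RNA RRAS goes from 12.4 to 19.2. Heights of different genes also reflect transcript length and are not compared.

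The 3 transcripts of HRAS had different point ratios in the pulldown. NM_005343 had 15 reads in the control and 67 in the miR-34a pulldown, for a ratio of 1.36 [0.20 to 2.73], the 1 member transcript with a pulldown interval above 0. NM_001130442 had 16 and 26 reads (-0.10 [-1.48 to 1.38]) and NM_176795, which encodes a shorter HRAS isoform, 23 and 43 (0.11 [-0.99 to 1.28]). NM_005343 therefore made up 27.8% of the HRAS reads in the control pulldown and 49.3% in the miR-34a pulldown, against 46.2% and 43.6% in total RNA. The intervals of the 3 transcripts overlap, and no source used here states how reads shared between transcripts were assigned.

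Both ARAF transcripts in the pulldown table had point ratios above 1 on the log2 scale, with intervals that include 0. NM_001654 had 6 control and 25 miR-34a reads (1.26 [-0.61 to 3.72]) and NM_001256196 had 4 and 20 (1.53 [-0.70 to 4.76]). The third, NM_001256197, has no pulldown row and had 437 control and 432 mimic reads in total RNA (0.10 [-0.18 to 0.38]). The other members are each listed with 1 transcript. HRAS overlaps LRRC56, ARAF overlaps SYN1 and MAP2K1 overlaps SNAPC5 in the RefSeq annotation, and ARAF, BRAF and MAP2K1 have pseudogenes; without stated handling of strand and shared reads, such reads cannot be told apart.

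**Figure D2:**
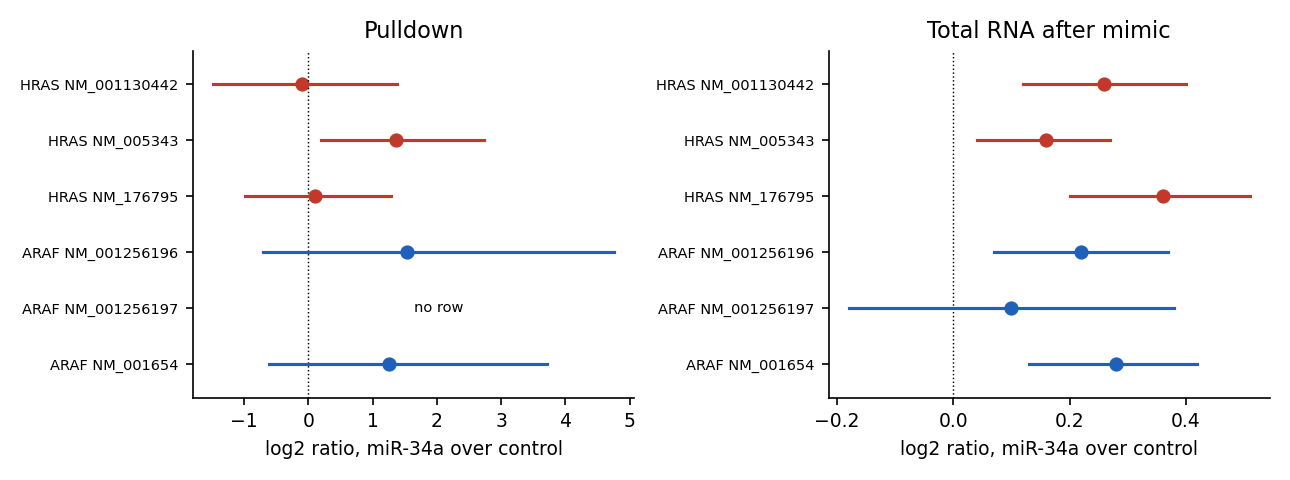
Log2 ratio of miR-34a over control for each listed transcript of HRAS (red) and ARAF (blue), with 95% counting intervals as bars, in the pulldown (left) and in total RNA after the mimic (right). NM_005343 stands at 1.36 in the pulldown and at 0.16 in total RNA; the horizontal scales of the panels differ.

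After the mimic, RRAS, MAP2K2, HRAS and ARAF stood above the median gene and BRAF, NRAS and MAP2K1 near or below it. 4 of the 7 genes were higher than the control beyond counting error, against 25.3% of all measured genes, and 0 were lower, against 23.1%. These shares include genes of lower depth, and smaller ratios pass counting error where reads are many. The median of all measured genes was 2340 reads in both libraries together, which each of the 7 except RRAS and BRAF exceeded. The median of the 7 was 0.23. 1 gene, RRAS, was at least 1.5-fold higher, against 9.20% of all genes, and 0 were at least 1.5-fold lower, against 4.42%. These directions are relative to the median gene: on the deposited RPKM scale, which puts the median gene at -0.65, HRAS (-0.40), ARAF (-0.41), MAP2K2 (-0.20) and RRAS (-0.02) lay below 0.

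RRAS had 571 reads in the control and 811 in the mimic library, for a log2 ratio of 0.62 [0.40 to 0.85] or 1.54-fold, above 91.6% of measured genes. MAP2K2 had 8010 and 10068 reads, a ratio of 0.45 [0.39 to 0.51] or 1.36-fold. HRAS had 5371 and 5845 reads (0.24 [0.16 to 0.32]). ARAF stood beside HRAS with 3412 and 3695 reads (0.23 [0.14 to 0.33]). All 3 HRAS transcripts were above 0 beyond counting error, between 0.16 and 0.36, and NM_005343, the highest of them in the pulldown, was the lowest here.

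The remaining members of the cascade were not beyond counting error after the mimic. MAP2K1, with 4313 control and 3815 mimic reads, had a log2 ratio of -0.06 [-0.15 to 0.03]. NRAS, with 5821 and 5157 reads, had the same ratio of -0.06 [-0.13 to 0.02]. BRAF had 297 and 222 reads and a ratio of -0.30 [-0.67 to 0.06], or 0.811-fold. On undivided reads 2 genes, BRAF [-0.56 to -0.05] and NRAS [-0.11 to 0.00], lay below 0, against 30.0% of all genes.

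**Figure D3:**
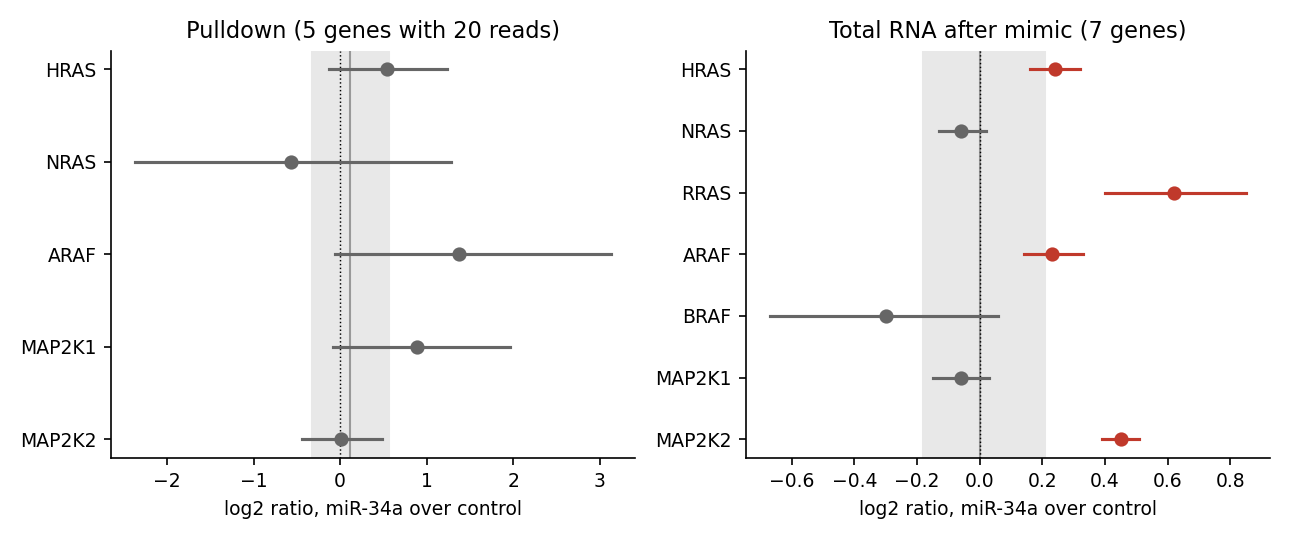
Log2 ratio of miR-34a over control per gene with 95% counting intervals (bars) in the pulldown (left, 5 genes) and in total RNA after the mimic (right, 7 genes), on TMM-scaled totals. Red marks genes above 0 beyond counting error, the grey band the quartiles of all measured genes (-0.32 to 0.56 and -0.18 to 0.21) and the grey line their median; on the deposited RPKM scale the mimic values are lower throughout and the 4 red genes lie below 0.

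Ratios between members of a family do not depend on how the libraries are scaled. After the mimic, MAP2K1 lay below MAP2K2, with a log2 difference of -0.51 [-0.61 to -0.40]. HRAS lay above NRAS by 0.30 [0.19 to 0.40], and ARAF above BRAF by 0.53 [0.15 to 0.91]. Both RAS GTPases lay below RRAS, with differences of -0.38 [-0.62 to -0.15] for HRAS and -0.68 [-0.92 to -0.44] for NRAS. Each of these 5 intervals leaves out 0. In the pulldown the differences were wider and included 0: 0.87 [-0.24 to 2.02] for MAP2K1 over MAP2K2, with an interval of 0.11 to 1.67 on undivided reads, and 1.11 [-0.88 to 3.04] for HRAS over NRAS. MAP2K1 was thus the higher of the MEK genes in the pulldown by its point ratio and the lower after the mimic.

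The share of pulldown reads was also set against the share of total RNA reads for each gene, with the caution that both tables were made separately. The median gene stood at -0.29 on the log2 scale in the control libraries and -0.47 in the miR-34a libraries (10543 genes). MAP2K2 and HRAS were well represented in both pulldowns, at 1.27 and 0.82 for MAP2K2 and 0.58 and 0.86 for HRAS. NRAS was poorly represented in both, at -1.71 in the control and -2.24 in the miR-34a libraries: 12 control pulldown reads were counted where the ratio of totals gives 39.3. ARAF went from -1.20 to -0.07 and MAP2K1 from -0.28 to 0.66, from at or below the median gene to above it. These changes restate the pulldown and mimic ratios from the same reads and are not separate evidence. Neither ARAF nor MAP2K1 lay beyond counting error in the pulldown on divided reads. RRAS, on 2 and 4 pulldown reads, stood at -0.95 and -1.38.

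**Figure D4:**
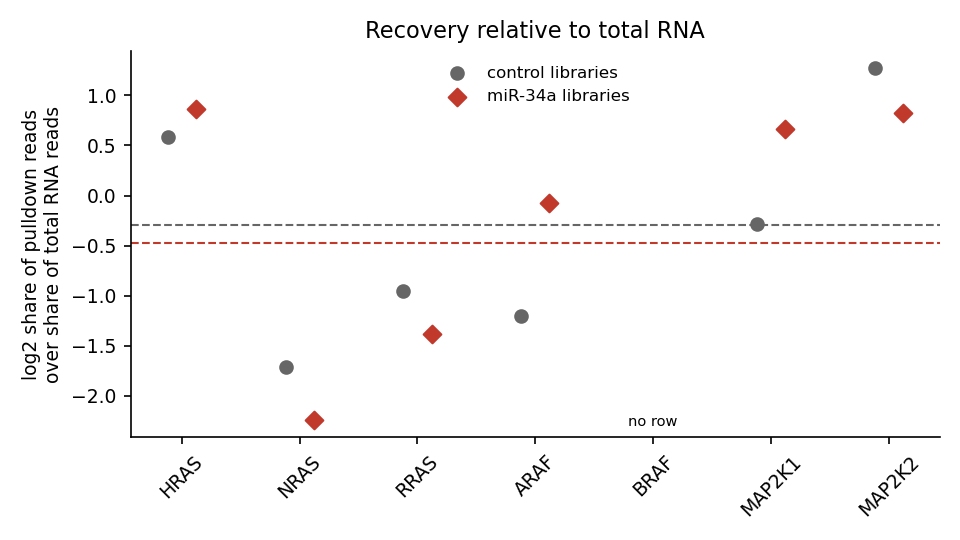
Log2 of each gene's share of pulldown reads over its share of total RNA reads, in the control (grey circles) and miR-34a (red diamonds) libraries, 1 library pair per point; dashed lines mark the median gene at -0.29 and -0.47. MAP2K2 and HRAS lie above both lines and NRAS and RRAS below both, and BRAF has no pulldown row.

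The rest of the pathway was described from 88 further genes in 10 lists, of which 41 were measured in the pulldown and 86 after the mimic. In the pulldown 15 of the 41 were at least 1.5-fold higher and 5 lower, against 24.0% and 14.2% of all measured genes. Beyond counting error 5 were higher and 2 lower, against 7.08% and 3.66%, and the median log2 ratio was 0.27 against 0.11. After the mimic 10 of the 86 were at least 1.5-fold higher and 2 lower, against 9.20% and 4.42% of all genes. Beyond counting error 33 were higher and 17 lower, against 25.3% and 23.1%, and the median was 0.07 against 0.00. The single lists below are small, and their counts are a description to be read against these same shares. Not every gene that the naming rule picked is given below.

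Among the RAS relatives, RRAS2, a GTPase also called TC21, stood at 0.87 [-1.11 to 3.38] in the pulldown and 0.17 [0.08 to 0.27] after the mimic. On 6 control and 19 miR-34a pulldown reads, RRAS2 met the minimum largely through its miR-34a reads. MRAS, which forms a phosphatase complex with SHOC2 that activates RAF, stood at 0.91 [0.71 to 1.11] after the mimic and had 4 control and 0 miR-34a pulldown reads. RRAS, RRAS2 and MRAS were above the control after the mimic beyond counting error, as was HRAS, while NRAS was not. Of all measured genes 25.3% were, and these directions are relative to the median gene.

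Of the adaptors and exchange factors that load RAS with GTP, 4 of 15 were measured in the pulldown, where 2 were at least 1.5-fold higher and 1 lower, against 24.0% and 14.2% of all genes (median 0.60). PTPN11, the phosphatase SHP2, had 26 reads in the control and 154 with miR-34a, for a ratio of 1.77 [0.91 to 2.74]. The adaptor GRB2 stood at 0.73 [-0.23 to 1.79] and the exchange factor SOS1 at -0.68 [-2.53 to 1.19]. After the mimic the median of the 15 was -0.09, with 6 higher and 6 lower beyond counting error, against 25.3% and 23.1% of all genes. At least 1.5-fold higher were 4 and lower 1, against 9.20% and 4.42%. The exchange factors RASGRF1 (23 and 65 reads, 1.62), RASGRP3 (12 and 32 reads, 1.53) and RASGRP2 (52 and 118 reads, 1.30) were the highest. The adaptor GAB1, named after its value was seen, was lowest at -0.66 [-0.90 to -0.43].

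GTPase activating proteins, which switch RAS off, had 4 of 10 members measured in the pulldown (median 1.21), 3 at least 1.5-fold higher and 1 lower, against 24.0% and 14.2% of all genes. NF1, neurofibromin, had 19 reads in the control and 243 with miR-34a, for a ratio of 2.88 [1.93 to 4.01], and stood at -0.11 [-0.20 to -0.01] after the mimic. DAB2IP was at 1.49 [0.00 to 3.36] and RASAL2 at -1.38 [-2.70 to -0.13] in the pulldown. After the mimic 9 were measured with a median of 0.09, and RASAL1, on 32 and 64 reads, was the 1 gene at least 1.5-fold higher (1.12 [0.21 to 2.08]), against 9.20% of all genes.

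Scaffolds and inhibitors of the cascade had 7 of 12 members measured in the pulldown (median 0.16). There the RAF scaffold KSR1 was the 1 gene past 1.5-fold, upwards against 24.0% of all genes, at 1.79 [-0.71 to 5.77]. KSR1 had 3 control and 18 miR-34a reads, so it met the minimum only through its miR-34a reads. After the mimic 0 of 11 were past 1.5-fold (median -0.04), against 9.20% of all genes upwards and 4.42% downwards. Of the enzymes that attach or trim the lipid anchor of RAS, 2 of 7 were measured in the pulldown: ICMT, a carboxyl methyltransferase, at 0.90 [-0.04 to 1.94] and FNTA, a farnesyltransferase subunit, at -0.80 [-2.70 to 1.11]. After the mimic the 7 had a median of 0.06 and 0 were past 1.5-fold, against 9.20% of all genes upwards and 4.42% downwards. Kinases that ERK phosphorylates had 0 of 4 past 1.5-fold in the pulldown (median -0.01), against 24.0% of all genes upwards and 14.2% downwards. After the mimic 0 of these 7 kinases were past it (median 0.16), against 9.20% and 4.42%.

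Transcripts known to follow ERK activity had a median of 0.37 after the mimic, with 6 of 10 higher and 1 lower beyond counting error, against 25.3% and 23.1% of all genes. The ETS transcription factor ETV4 had 315 control and 1315 mimic reads (2.18 [1.93 to 2.44]) and its relative ETV5 294 and 618 (1.19 [0.90 to 1.48]). The receptor EPHA4 was lower at -0.80 [-1.03 to -0.58]. The 1.5-fold rule was met upwards by 3 of the 10, against 9.20% of all genes, the third being the ERK phosphatase DUSP4 at 0.76, named after its value was seen. PHLDA1 at 0.24 [-0.02 to 0.50], SPRY2 at 0.11 [-0.06 to 0.28] and DUSP6 at -0.17 [-0.63 to 0.29] were within counting error after the mimic. CCND1, counted among those higher beyond counting error, stood at only 0.06 [0.00 to 0.11]. PHLDA1, SPRY2, DUSP6 and CCND1 fall outside the naming rule and are given so that the list is not read as a uniform rise. On the deposited RPKM scale each mimic ratio is lower by the shift of the median gene. In the pulldown 4 of the 10 were measured (median 0.18), and ETV5, on 2 and 24 reads, stood at 2.79 [0.03 to 8.21]. With so few control reads, ETV5 met the minimum only through its miR-34a reads.

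The parallel MAP kinase cascades, which carry stress signals to JNK, p38 and ERK5, had 8 of 13 genes measured in the pulldown (median 0.35), 3 at least 1.5-fold higher and 1 lower, against 24.0% and 14.2% of all genes. MAP2K4 stood at 1.29 [-0.32 to 3.32], the p38 kinase MAPK14 at 1.10 [-0.30 to 2.78] and the JNK kinase MAPK9 at 0.64 [-1.24 to 2.94]. After the mimic the median was 0.05, and MAPK11, another p38 kinase, was the 1 gene past 1.5-fold at 0.70 [0.36 to 1.04], against 9.20% of all genes. RAL and RAP GTPases had RAP2B at -1.52 [-2.94 to -0.19] in the pulldown (3 of 8 measured, median 0.27). After the mimic 0 of the 8 were past 1.5-fold (median 0.06), against 9.20% of all genes upwards and 4.42% downwards.

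Likeness of pattern was measured as the distance between the 2 log2 ratios of a member and those of each of 41 other pathway genes measured in both tables. The nearest gene was RHEB for HRAS (distance 0.07), MAPK12 for NRAS (0.12), DAB2IP for ARAF (0.19), ICMT for MAP2K1 (0.03) and CDC37 for MAP2K2 (0.17). ICMT had 0.90 and -0.04 where MAP2K1 had 0.89 and -0.06. The distances use point ratios only. Pulldown intervals were far wider than these distances, at [-0.08 to 1.96] for MAP2K1 and [-0.04 to 1.94] for ICMT. Counting error alone could therefore change which gene is nearest.

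**Figure D5:**
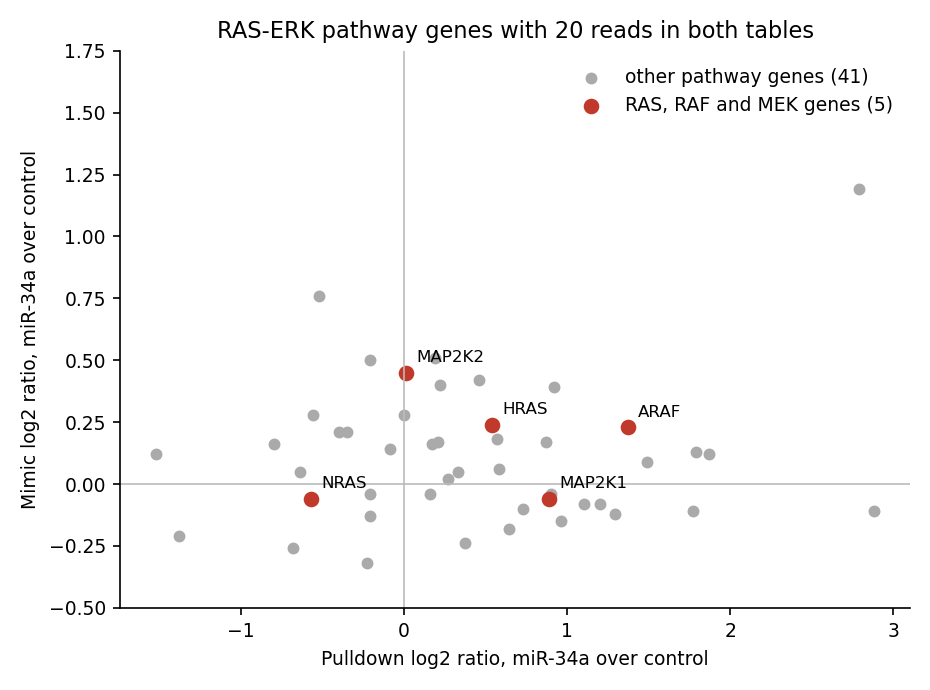
Log2 ratio of miR-34a over control in the pulldown (horizontal) and in total RNA after the mimic (vertical) for the 5 members (red) and 41 other pathway genes (grey) with at least 20 reads in both tables, 1 gene per point. ARAF lies at 1.37 and 0.23, MAP2K1 at 0.89 and -0.06, and MAP2K2 at 0.01 and 0.45.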

How the data were processed

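The authors deposited read counts per RefSeq transcript, whole numbers without normalization, with RPKM for the same transcripts. Bowtie2, edgeR and hg38 are named in the submitters' processing notes; roles, versions, filters and strand use were not given in the sources used here. Within a gene, the RPKM worth of 1 read was equal (tolerance 1e-06) for all transcripts in each of the 6514 mimic genes with several, so it follows no transcript length; RPKM was used only as another scaling. Columns headed NC were taken as controls of their sheet.

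Counts were summed per gene name and scaled with TMM (edgeR 4.0.16, R 4.3.3), and ratios were computed where a gene's reads in both libraries summed to 20 or more. For the point value only, a count of 0 was replaced by 3. Intervals (scipy 1.17.1, Python 3.11.15) used reads divided by 2: at 2 to 9 reads, 96.0% of control counts in the mimic table were even. In the control pulldown 73.5% were even at 2 to 9 reads and 52.3% at 10 to 49 reads. The intervals were also run on simulated counts, drawn with the same doubling and counting error that the intervals assume. That run therefore cannot show whether the doubling holds in these libraries. Intervals for ratios between members came from the exact conditional odds ratio. Gene positions are from RefSeq for GRCh38.p14.

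The naming rule took the 7 members, up to 3 genes of each pathway list past 1.5-fold in each comparison, and the nearest pathway gene of each member. Some genes that met it are not reported here. Members and lists were chosen with earlier results of these data known. Other scalings, minimums, folds, intervals and the transcript with the most reads were tried. 1 library per group leaves no test between conditions.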

Additional observations from a re-analysis of the deposited data

How the results depend on the processing

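No paired analysis was possible because each group has 1 library, and for the same reason no replicate could be left out. Members above the control beyond counting error in the pulldown numbered 0, and 3 with deposited RPKM, 3 with undivided reads and 1 with the transcript with the most reads (HRAS, 1.36). That transcript was picked by reads summed over both libraries, which favours a high ratio for HRAS. It had 15 control reads, against 16 and 23 for the other HRAS transcripts, and led only through its 67 miR-34a reads. Of all 6253 measured pulldown genes, 443 were above the control beyond counting error, 893 with deposited RPKM and 968 with undivided reads. With the transcript with the most reads, 369 of 5480 genes were. With the mimic 4 were higher and 0 lower. With deposited RPKM 0 were higher and 6 lower, with the median gene at -0.65. On that scale 365 of all 14787 genes were higher and 11734 lower beyond counting error. ARAF at -0.41, HRAS at -0.40 and MAP2K2 at -0.20 were among the 6, and RRAS at -0.02 was within counting error. With library totals 1 was lower (NRAS) and with undivided reads 2, where 3921 and 4433 of all 14787 genes were lower. In the pulldown 2 members were at least 1.5-fold higher, 1 at 2-fold or with a minimum of 100 reads, and 3 at the smaller fold threshold, with deposited RPKM or with the transcript with the most reads; 0 were lower, and 1 (NRAS) at the smaller fold threshold, with DESeq2 size factors or with library totals. With the mimic 1 was at least 1.5-fold higher, 2 at the smaller fold threshold, 0 at 2-fold and 0 with deposited RPKM, which put 3 lower. Of other pathway genes, 15 were higher in the pulldown, 9 at 2-fold, 4 with a minimum of 100 reads, 20 at the smaller fold threshold or with deposited RPKM and 21 with no minimum; 5 were lower, 9 at the smaller fold threshold, 2 at 2-fold, 2 with deposited RPKM, 0 with a minimum of 100 reads and 16 with no minimum. With the mimic 10 were higher, 19 at the smaller fold threshold, 6 at 2-fold and 4 with deposited RPKM; 2 were lower, 4 at the smaller fold threshold, 0 at 2-fold and 41 with deposited RPKM. Of all genes on the deposited RPKM scale, 393 of 14787 were at least 1.5-fold higher with the mimic and 8703 lower. In the pulldown 2323 of 6253 were higher and 502 lower on that scale, and 2418 and 2616 of 10662 with no minimum. MAP2K1 over MAP2K2 in the pulldown, 0.87, lay beyond counting error with undivided reads. Another fold threshold, minimum or scaling moves such counts by its own construction; the cause of the other changes was not tested. In the pulldown ARAF, at 2.59-fold, lay within counting error on reads divided by 2 and beyond it on undivided reads (0.36 to 2.53 on the log2 scale).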

Other observations

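Pathway genes commonly carried by cancer sequencing panels were set apart in a list drawn up after the ratios were seen. Of 11 such genes other than the members, 10 were measured in the pulldown, with a median log2 ratio of 1.08, 6 at least 1.5-fold higher and 1 lower, and 3 higher and 0 lower beyond counting error. The 31 other measured pathway genes had a median of 0.19, 9 at least 1.5-fold higher and 4 lower, and 2 higher and 2 lower beyond counting error. Of all measured pulldown genes 24.0% were at least 1.5-fold higher, 14.2% lower, and 7.08% and 3.66% beyond counting error. After the mimic the medians were -0.11 and 0.09. HRAS, NRAS, ARAF, BRAF, MAP2K1 and MAP2K2 are on that list as well, with a pulldown median of 0.54 over the 5 measured. Because the list was drawn up with the ratios known, the difference between these medians cannot show a trait of panel genes. Whether panel genes differ from other genes was not tested.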
